A study of Mus musculus with 50 samples.

Results

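Sinusoidal endothelial cells line the hepatic sinusoids, the capillaries that run between plates of hepatocytes. Unlike the lining of most vessels they are fenestrated and lack a continuous basement membrane, and they take up macromolecules from blood through scavenger receptors such as the mannose receptor Mrc1. They also send signals to the hepatocytes beside them, among them Bmp2, a ligand known for its part in iron regulation. In livers of control and HIRA KO mice profiled by CosMx, in which fluorescent probes are decoded as single transcripts on a tissue section and assigned to segmented cells, 569 of 49917 kept cells were taken as sinusoidal endothelial cells. They were chosen by their own counts. A cell with at least 20 gene counts was taken when the sum of 7 endothelial genes (Kdr, Eng, Esam, Clec14a, Ramp2, Adgrf5 and Cdh5) was at least 4 counts and at least 4% of its counts, and when Vwf and Fabp4, which mark larger vessels and continuous capillaries, together had at most 1 count. The levels of these 9 genes are therefore a description of the choice and are not tested.

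The control mice were wild-type (WT) C57BL/6 animals and the HIRA KO mice were HIRA fl/fl on the same background, and all of them were injected with AAV8 Tbg-Cre when 6 months old and collected 12 months later, at 18 months. The Tbg promoter drives Cre in hepatocytes, so that the endothelial cells described here were not the targeted cells, and Hira was not among the targets of the panel. The 50 fields of view of FFPE liver lay in 6 tissue areas, 3 for each group, with 8 or 9 fields of view each. The study's methods describe biological replicates, while the labels tie no field of view to a mouse. The tissue area served as the replicate. Gene tests between genotypes draw on a spread between areas that is shared across genes, so a gene's own spread may count little. Gene tests that compare cells within an area draw on how that difference varies between areas, again shared across genes. Permutation tests use the values of the areas themselves. All control areas shared one slide column and all HIRA KO areas the opposite one, so genotype and slide column cannot be told apart, while each of the 3 slide rows held an area of each group, and areas are numbered by row. The panel had 1000 targets for genes and 10 negative probes.

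The 569 cells were small samples of RNA. They held 54499 gene counts in all, from 5424 to 14626 per area, with a median of 92 counts and 76 detected genes per cell. Between 27 and 250 counts were found in a cell. The 7 marker genes made up a median of 5.21% of a cell's counts, and a median of 5 marker counts stood behind the choice, with 11 at most. Eng, a co-receptor of the TGF-beta family, was detected in 66.4% of the cells, followed by Cdh5, the cadherin of endothelial junctions, in 51.1% and Kdr, the main receptor for VEGF-A, in 49.7%. Adgrf5 and Esam were detected in 37.96% and 36.7%. No cell held all 7 markers. In 275 cells 3 of them were detected, in 149 cells 4 of them, and a single marker in 6 cells. Of the limit on Vwf and Fabp4, 495 cells had 0 counts and 74 had 1.

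Cells at the edges of the rule also carried the endothelial genes that the rule did not use. The 233 cells with exactly 4 marker counts had 45.6 counts of Bmp2 and 36.96 of Mrc1 per 10000 gene counts. The 290 cells just outside, with 3 marker counts at the same share of 4%, had 55.3 and 42.7. Tie1, Tek and Dll4 were at 25.99, 25.99 and 12.7 just inside this limit and at 13.8, 16.3 and 7.54 just outside. The 239 cells with 4% to under 5% of counts from the markers had 43.95 counts of Bmp2 per 10000, against 39.5 in the 347 cells just outside with 3% to under 4%. All other kept cells were at 14.2. A looser limit of 3 counts and 3%, tried after the values were seen, was passed by 1459 cells.

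The share of kept cells that were chosen ranged more widely between slide rows than between the groups. It was 0.770% in control area 1 (63 of 8181 cells, 95% exact Clopper-Pearson interval 0.592 to 0.984), 1.10% in control area 2 (75 of 6829, interval 0.865 to 1.37) and 2.28% in control area 3 (161 of 7058, interval 1.95 to 2.66). In HIRA KO it was 0.580% in area 1 (59 of 10180, interval 0.441 to 0.747), 0.818% in area 2 (83 of 10150, interval 0.652 to 1.01) and 1.70% in area 3 (128 of 7519, interval 1.42 to 2.02). These intervals cover counting error only. In each slide row the HIRA KO area was lower than the control area, and across rows the groups overlapped. The mean of the control areas was 1.38% ± 0.795 and that of the HIRA KO areas 1.03% ± 0.592 (SD, n = 3 areas each). The difference is given as a description and was not tested, since the rule set the share. The choice used counts of the cells themselves, so the share depends on depth, and the median count of the other kept cells ran from 88 in control area 3 to 152 in HIRA KO area 3. When cells with at least 100 counts were thinned to 100 counts each, the shares were 1.10%, 2.01% and 3.29% in control areas 1 to 3 and 0.982%, 1.76% and 2.14% in the HIRA KO areas, against 0.418%, 0.812%, 1.60%, 0.378%, 0.525% and 1.09% of the same cells before thinning. The cells too shallow to be thinned numbered between 2396 and 4885 per area. Without control area 3 the group difference turned from -0.350 to 0.0991 percentage points, and without HIRA KO area 3 it was -0.684. Each of these leaves slide row 3, where both groups had their highest share, in 1 group only. Between fields of view of an area the share also varied, from 0.364% to 1.93% in control area 2 and from 1.69% to 3.597% in control area 3.

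**Figure D1:**
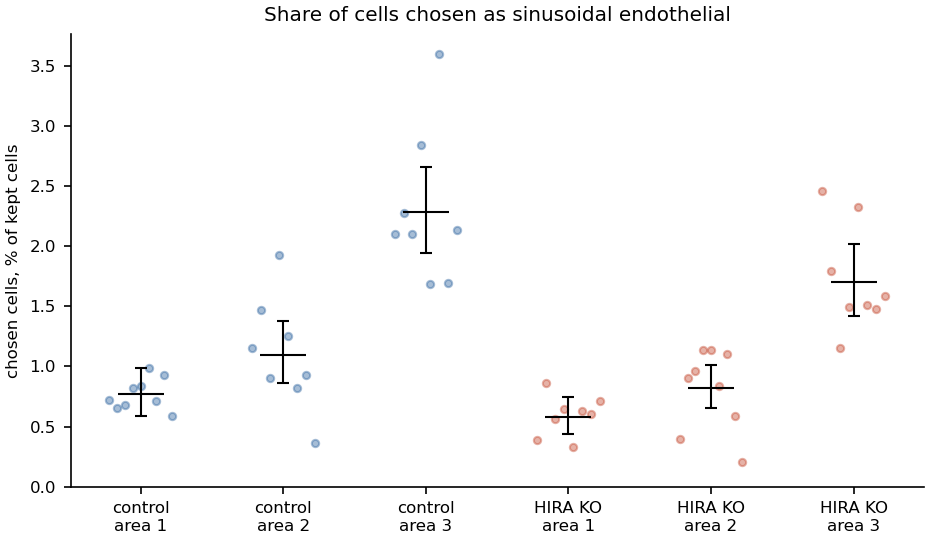
Share of kept cells chosen as sinusoidal endothelial cells in each tissue area, in percent of kept cells. Coloured points are fields of view, black lines the pooled share of the area and bars its 95% exact binomial interval, which covers counting error only; area 3 had the highest pooled share in each group, 2.28% and 1.70%.

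Genes that the rule did not use gave a check of the label. All 6 measured genes of sinusoidal identity (Mrc1, Bmp2, Igfbp7, Cd36, Maf and Lyve1) were higher in the chosen cells than in the other kept cells of every area. Over all 991 genes outside the rule, 58 were higher in 6 of 6 areas, or 5.85%, and 107 were lower in 6 of 6 areas, or 10.8%. These counts are given without a test, since the cells were picked on correlated genes. The 6 identity genes together made up 2.71% of the counts of the chosen cells and 0.957% of those of the other cells. Of 9 measured genes of continuous and large-vessel endothelium, 1 was higher in every area, Tm4sf1. The summed share of this list was also higher in the chosen cells of every area, at 0.932% against 0.685% over all areas, with a median ratio of 1.34 per gene, where it was 2.85 for the identity list and 0.891 over all genes outside the rule. Prox1, a regulator of lymphatic endothelium that hepatocytes also express, was lower in the chosen cells of every area.

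The identity genes varied between areas, and all but Cd36, which is given with the genotype comparison, overlapped between the groups. Mrc1 was at 35.03, 44.99 and 46.5 counts per 10000 in control areas 1 to 3 and at 36.1, 36.3 and 52.0 in HIRA KO areas 1 to 3. The groups overlapped, and the other kept cells were between 10.1 and 15.9 in every area. Bmp2 was at 35.03, 35.7 and 55.4 in control and at 57.7, 37.5 and 39.7 in HIRA KO, with a control and a HIRA KO area on top and other cells between 12.2 and 18.5. Igfbp7, a secreted protein of endothelial and mesenchymal cells that binds growth factors, was at 99.6, 120 and 158 in control and at 70.3, 98.0 and 137 in HIRA KO. Its level was highest in area 3 of each group, the area with the largest share of chosen cells. Maf, a transcription factor of sinusoidal endothelial identity, was at 22.4 counts per 10000 over all chosen cells and at 10.3 in the others. Lyve1, a hyaluronan receptor of sinusoidal and lymphatic endothelium, had only 65 counts, 11.9 per 10000 against 7.34.

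A transcript was detected in few of these cells at a time. Mrc1 was detected in 30.6% of the chosen cells at a median of 92 counts, and in 15.04% of 34064 cells of a hepatocyte class, at a median of 129 counts. Cells of this class had more counts from hepatocyte markers than from the Kupffer, stellate, biliary or leukocyte list. For Bmp2 the shares were 31.5% and 16.98%, and for Igfbp7 59.9% and 32.8%. The negative probe seen most often was found in 3.69% of the chosen cells. Bmp2 and Mrc1 were found together in 10.7%. For Lyve1 the shares were 9.67% and 10.2%, so that detection per cell did not separate the chosen cells from hepatocyte cells for this gene.

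Outside the identity list, several of the genes with the largest ratio of chosen over other cells are known from endothelium. Cd55, which restrains complement at the cell surface, was at 25.5 counts per 10000 against 7.11, a ratio of 3.59. Dll4, a Notch ligand of endothelium, was 2.77 times as high, Npr1, the receptor for atrial natriuretic peptide, 2.69 times, and Adgrl4, an adhesion receptor of vessels, 2.61 times. Tie1 and Tek, the receptors of the angiopoietin system, were 2.44 and 1.96 times as high. Among basement membrane genes, Col4a1 was 2.21 times, Col4a2 1.86 times and Hspg2, which encodes perlecan, 1.74 times as high. Msr1, a scavenger receptor, was 2.33 times and Klf2, a transcription factor induced by shear stress, 1.98 times as high. All of these were higher in 6 of 6 areas. By list, 5 of 23 vascular receptors were higher in every area and 0 lower, beside 5.85% higher and 10.8% lower over all genes outside the rule. Of 15 genes of basement membrane and matrix 5 were higher and 2 lower, and of 28 angiocrine ligands 3 were higher and 5 lower. Of 16 antigen presentation genes 3 were higher and 2 lower, and of 24 early response and stress genes 3 were higher and 3 lower. Of 15 genes of junctions and adhesion 1 was higher and 3 lower, of 14 interferon response genes 1 was higher and 0 lower, and of 19 genes of endothelial inflammation 0 were higher and 2 lower.

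**Figure D2:**
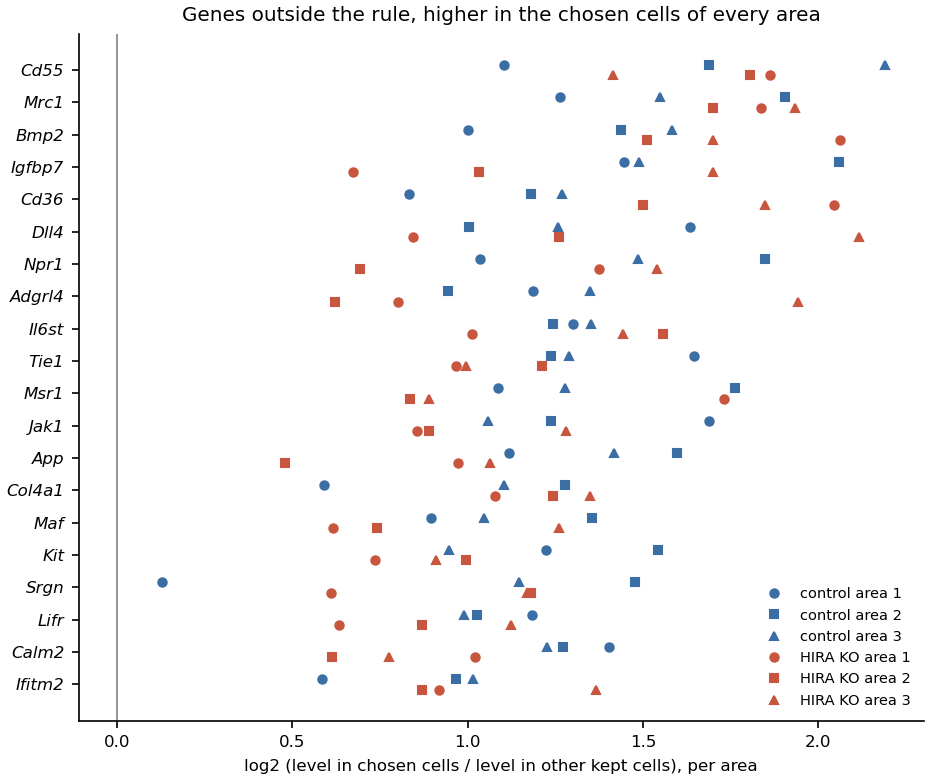
Log2 ratio of the level in the chosen cells over the level in the other kept cells for the 20 genes outside the rule with the largest pooled ratio among those higher in every area and above the highest negative probe. Each symbol is a tissue area, blue for control and red for HIRA KO; all points lie to the right of 0, and for most genes the symbols of the groups are mixed.

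Lists of hepatocyte, biliary, leukocyte, Kupffer, and stellate and fibroblast markers were lower in the chosen cells. Hepatocyte markers made up 4.67% of their counts and 8.99% of those of the other cells, with 13 of 15 genes lower in every area. Biliary markers were at 0.666% against 1.29%, leukocyte markers at 1.23% against 2.22%, Kupffer cell markers at 0.640% against 1.06%, and stellate and fibroblast markers at 1.65% against 2.06%. None of these lists had a gene higher in every area. The 2 globin targets of red cells were not lower, at 0.229% together against 0.214%. Vegfa, the ligand of Kdr and known to be made by hepatocytes, was at 9.72 counts per 10000 in the chosen cells and at 24.8 in the others. Transcripts of the hepatocyte genes Ttr and Gc lay mostly outside the nucleus of the chosen cells. Of Ttr transcripts 16.4% lay over the nucleus and of Gc transcripts 19.4%, against 67.9% of Kdr, 69.0% of Mrc1 and between 55.7% and 64.0% of all transcripts of the chosen cells per area.

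With Cre driven in hepatocytes, the comparison of genotypes asks what differed in the cells beside them. Ttr, which encodes the thyroxine carrier transthyretin made by hepatocytes, and Hba-a1/2, the alpha-globin target of red cells, were higher in the chosen cells of HIRA KO areas. Neither is in the endothelial gene lists used here. With counts summed per area, 184 genes passed the filter on low counts, and 177 of these lay outside the rule. The quasi-likelihood test of edgeR, adjusted by Benjamini-Hochberg, called 2 of 177 genes higher in HIRA KO, or 1.13%, and 0 lower, or 0%. At an unadjusted p under 0.05 there were 8 higher and 4 lower. DESeq2 called 1 gene, Ttr. With a median standard error of 0.35 on the log2 scale per gene, the depth limited which differences could be detected.

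Ttr was at 70.1, 52.9 and 73.2 counts per 10000 in the chosen cells of control areas 1 to 3 and at 119, 138 and 279 in those of HIRA KO areas 1 to 3. All HIRA KO areas lay above all control areas, and area 3 was far above the other two. The log2 fold was 1.47 with a standard error of 0.28, and edgeR's adjusted p was 2.98e-05. The other kept cells moved the same way, from 157, 208 and 209 in control to 252, 485 and 522 in HIRA KO. The difference in fold between chosen and other cells was 0.22 with a standard error of 0.28, and edgeR's adjusted p for it was 0.961. Without HIRA KO area 3 the log2 fold was 1.01 and the adjusted p 0.195. With only transcripts over the nucleus, which leaves out most Ttr counts, it was 0.75, with an adjusted p of 0.809 from edgeR. In cells with at most 10% of counts from the hepatocyte list it was 1.27, with an adjusted p of 0.00122 from edgeR. That list holds Ttr, so this limit picks cells partly on Ttr and is no separate check. The limit left 62, 74 and 158 of 63, 75 and 161 cells in control areas 1 to 3. In HIRA KO areas 1 to 3 the limit left 56, 78 and 104 of 59, 83 and 128 cells.

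The summed share of hepatocyte markers, Ttr included, was also higher in the chosen cells of HIRA KO areas. This share of counts was 3.78%, 3.63% and 3.58% in control areas 1 to 3 and 4.63%, 4.85% and 6.76% in HIRA KO areas 1 to 3. The groups did not overlap. In the other kept cells the shares were 6.10%, 7.45% and 7.52% in control and 7.92%, 10.99% and 11.6% in HIRA KO. Of the 15 listed genes 8 were tested in the chosen cells, Ttr was the one called, 6 had a positive fold, and Glud1 and Apoa1 had folds of -0.20 and -0.15, with a median log2 fold of 0.35 beside -0.01 over all genes tested. Gc, the vitamin D binding protein, had a log2 fold of 0.71 and Apoe, a lipoprotein component also made by macrophages, one of 0.49, and neither passed the test, with adjusted p-values of 0.437 and 0.578 from edgeR. What part transcripts of neighbouring hepatocytes inside the endothelial outlines had in the Ttr result was not tested.

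Hba-a1/2 had 82 counts in all. It was at 3.69, 7.94 and 9.57 counts per 10000 in control areas and at 18.0, 13.3 and 29.8 in HIRA KO areas. The groups did not overlap. The log2 fold was 1.45 with a standard error of 0.41, and edgeR's adjusted p was 0.0362. The other kept cells were at 12.6, 12.3 and 11.3 in control and 7.95, 9.49 and 16.2 in HIRA KO, where the groups overlapped. Hbb, the other globin measured, was at 1.84, 2.65 and 6.84 in control and 7.21, 3.63 and 17.6 in HIRA KO and was not among the genes tested. Both globin targets together made up 0.0553%, 0.106% and 0.164% of the counts of the chosen cells in control and 0.252%, 0.169% and 0.474% in HIRA KO, which did not overlap, and the part of red cells in this result was not tested. The call was lost with DESeq2, without the filter on low counts, with the looser limit and when any single area but HIRA KO area 2 was left out, with adjusted p-values from 0.0633 to 0.744. The log2 fold stayed between 0.65 and 1.74.

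**Figure D3:**
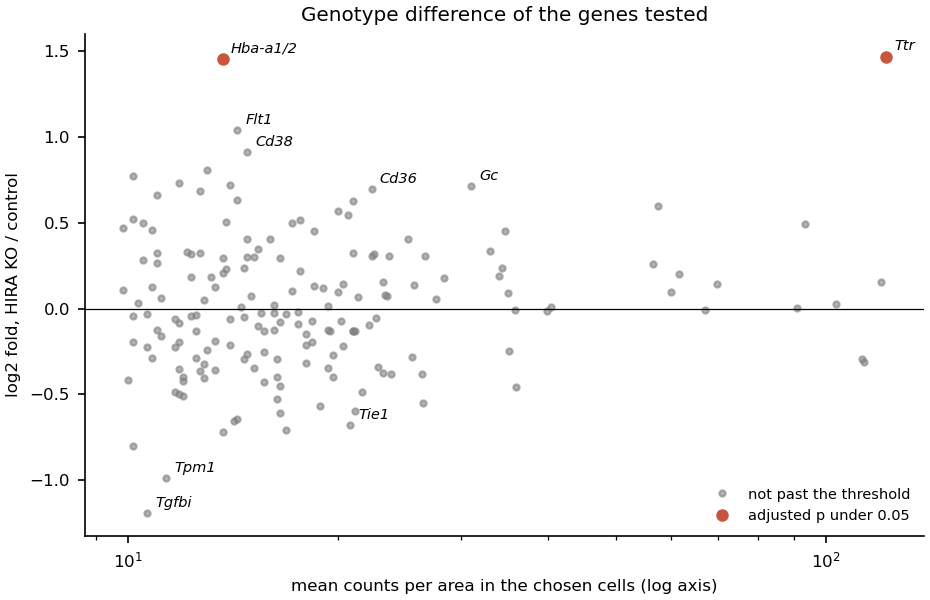
Log2 fold of HIRA KO over control in the chosen cells against mean counts per area (log axis) for the 177 tested genes outside the rule. Red points are the 2 genes with an adjusted p under 0.05, Ttr and Hba-a1/2; named grey points did not pass the test.

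Several vascular genes did not overlap between the groups and did not pass the test. Of the 177 tested genes, 12 had all HIRA KO areas above all control areas, or 6.78%, and 12 had them all below, also 6.78%. Flt1, a receptor that binds VEGF-A and limits its signal through Kdr, was at 11.1, 7.94 and 11.6 counts per 10000 in control areas and at 23.4, 24.2 and 18.3 in HIRA KO areas. Each HIRA KO area was above every control area, on 6, 6 and 17 counts in control and 13, 20 and 24 in HIRA KO. The log2 fold was 1.04 with a standard error of 0.38, and edgeR's adjusted p was 0.412. In the other kept cells Flt1 ran the other way, at 10.3, 10.3 and 8.96 in control and 7.72, 8.62 and 7.85 in HIRA KO. The difference between the folds was 1.20 with a standard error of 0.37 and did not pass the test either, with an adjusted p of 0.333 from edgeR.

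Tie1 was nearly level among control areas, at 29.5, 27.8 and 28.03 counts per 10000, and lower in HIRA KO areas, at 16.2, 20.6 and 16.1. The log2 fold of -0.68 with a standard error of 0.32 had an adjusted p of 0.578 from edgeR. Tek, its partner receptor, overlapped between groups, at 22.1, 26.5 and 25.3 in control and 16.2, 16.9 and 33.6 in HIRA KO. Cd38, an ectoenzyme that consumes NAD, was at 12.9, 10.6 and 11.6 in control and 28.9, 25.4 and 15.3 in HIRA KO. Its groups did not overlap, with a log2 fold of 0.91 with a standard error of 0.37 and an adjusted p of 0.437 from edgeR. Cd36, a scavenger receptor and fatty acid translocase, was at 16.6, 21.2 and 18.5 in control and at 34.3, 25.4 and 32.1 in HIRA KO, with an adjusted p of 0.571 from edgeR.

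The genes with the lowest p among those with a negative fold were Tgfbi, Tpm1 and Tie1. Tgfbi, an extracellular matrix protein induced by TGF-beta, was at 16.6, 14.6 and 17.1 counts per 10000 in control and at 5.41, 6.05 and 8.41 in HIRA KO. The groups were far apart on 64 counts, the log2 fold was -1.19 with a standard error of 0.46, and edgeR's adjusted p was 0.437. Tpm1, an actin-binding tropomyosin, was at 20.3, 17.2 and 15.04 in control and 12.6, 12.1 and 3.82 in HIRA KO, with an adjusted p of 0.555 from edgeR. Under the alternatives tried the fold of Tgfbi stayed between -1.42 and -0.31 and that of Flt1 between 0.57 and 1.22, and neither passed the test under any of them.

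**Figure D4:**
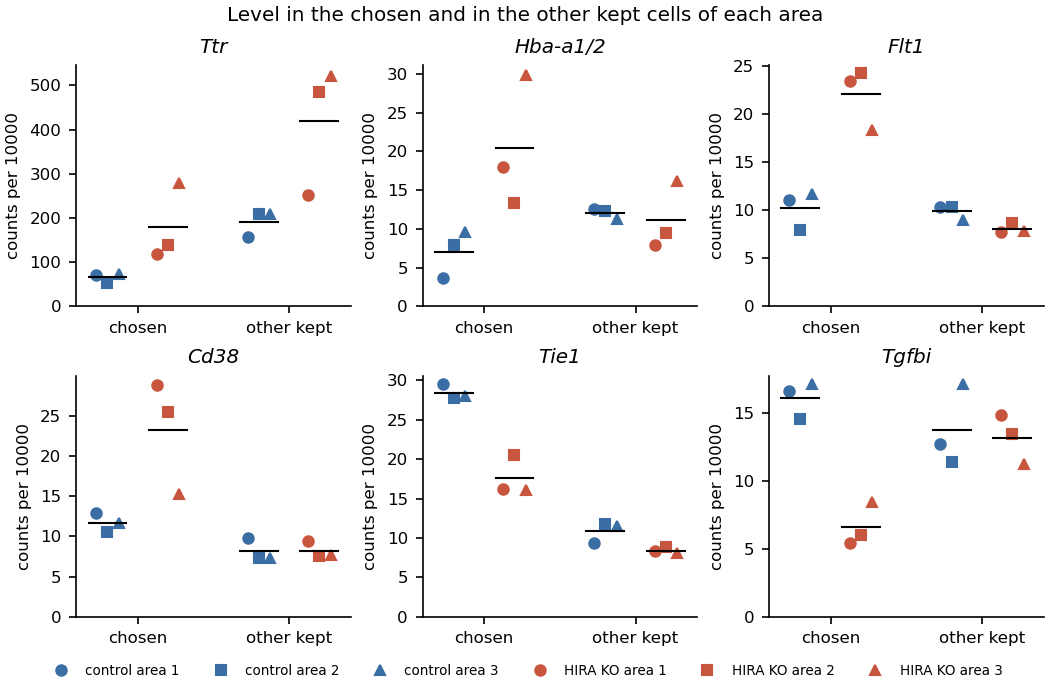
Counts per 10000 gene counts of 6 genes in the chosen and in the other kept cells of each area, blue for control and red for HIRA KO. Black lines are group means over 3 areas; Ttr was higher in HIRA KO in the chosen and in the other cells, while Flt1, Cd38, Tie1 and Tgfbi did not overlap between the groups in the chosen cells and did not pass the test.

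By function, no list outside hepatocyte and red cell genes had a called gene. Among vascular receptors 9 of 23 measured genes were tested, 0 were called, 4 had a positive fold, and the median log2 fold was -0.04. Among angiocrine ligands, the signals that endothelium sends to its neighbours, 4 of 28 genes were tested. Cxcl12, a chemokine that retains blood cells, had a log2 fold of 0.32, Tgfb1 one of -0.36, Vegfb one of -0.30 and Bmp2 one of 0.01. For junctions and adhesion 5 of 15 genes were tested, 4 had a negative fold and the median was -0.29. Icam1 and Icam2, which bind leukocyte integrins, had folds of -0.65 and -0.72 with an adjusted p of 0.578 each from edgeR. For basement membrane and matrix 4 of 15 genes were tested, with folds from -0.03 for Hspg2 to 0.32 for Col4a1.

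The immune and stress lists held no called gene either. Of 16 antigen presentation genes 8 were tested, 6 had a positive fold, and the largest was 0.51 for H2-Aa of MHC class II. Of 14 interferon response genes 5 were tested, with Ifitm1, a restriction factor against viruses, at -0.70 and the others between -0.13 and 0.26. Of 24 early response and stress genes 11 were tested, with a median log2 fold of 0.12. Gpx1, a glutathione peroxidase, had a fold of 0.60 and Hsp90ab1, a chaperone, one of 0.63, with adjusted p-values of 0.555 and 0.578 from edgeR. The list as a whole made up 3.56%, 3.85% and 3.52% of counts in control areas and 4.17%, 3.93% and 4.06% in HIRA KO areas, which did not overlap. In the other kept cells it made up 3.47%, 3.87% and 3.69% in control and 3.97%, 4.17% and 4.19% in HIRA KO, which did not overlap either. Of 19 genes of endothelial inflammation 7 were tested and 5 had a negative fold, with a median of -0.29. The 6 genes of sinusoidal identity were all tested, none was called, and their folds ran from -0.29 to 0.69. Lists of Kupffer, stellate, biliary and leukocyte markers had 7 tested genes in all, none called, and their shares of counts overlapped between the groups.

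Whether a genotype difference was particular to these cells was tested with chosen and other cells of each area in a single fit. edgeR called 0 of 989 genes outside the rule in either direction, or 0%, and 50 had an unadjusted p under 0.05, of which 23 had a more positive and 27 a more negative fold in the chosen cells. DESeq2 called 0. Angpt2, a ligand of Tek that endothelial cells store and release, had the lowest p among positive differences. It had 1, 2 and 3 counts in control areas and 7, 9 and 10 in HIRA KO areas, and the other kept cells were between 4.80 and 6.09 counts per 10000 in every area. Its difference was 2.12 on the log2 scale with a standard error of 0.61, and edgeR's adjusted p was 0.254. Cd3g, part of the T cell receptor complex, had the lowest p among negative differences, at -2.09 with a standard error of 0.55 and the same adjusted p. Its counts were 7, 11 and 14 in control and 2, 1 and 5 in HIRA KO. The highest negative probe had a mean of 3.67 counts per area in the chosen cells, so Angpt2 in control and Cd3g in HIRA KO were near this floor. Cxcl13, a chemokine that attracts B cells, and Igkc, an immunoglobulin light chain, followed at -1.77 and -1.52, with adjusted p-values of 0.254 and 0.515 from edgeR, and had 40 and 46 counts in the chosen cells of all areas.

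Endothelial cells that passed the same limits on the 7 markers but held at least 2 counts of Vwf and Fabp4 were few, 28 in all and between 1 and 10 per area. With edgeR and the area as a block, 0 of 25 tested genes outside the rule differed from the sinusoidal cells in either direction, or 0%. There was 1 gene at an unadjusted p under 0.05, Atp5b, a subunit of ATP synthase, with a log2 fold of -1.09 and an adjusted p of 0.629, and DESeq2 called 0. Mrc1 was at 35.98 counts per 10000, Bmp2 at 32.7 and Igfbp7 at 137 in these 28 cells, on 11, 10 and 42 counts. The corresponding levels in the chosen cells were 43.9, 44.4 and 124. Cd36 was at 9.81 on 3 counts, against 24.6, and Lyve1 at 6.54 on 2 counts, against 11.9. Maf ran the other way, at 35.98 on 11 counts in the 28 cells against 22.4 in the chosen cells. The log2 fold of the chosen cells over the 28 was 0.52 for Mrc1, with a standard error of 0.55, and 0.50 for Bmp2, with a standard error of 0.55. At this depth the test could not tell the 2 kinds of cell apart. The word sinusoidal rests on the limit on Vwf and Fabp4 and on the identity genes being higher than in the other kept cells. The limit is a weak one at this depth, as it left out only these 28 cells. Vwf and Fabp4 together made up 0.136% of the counts of the chosen cells and 0.134% of those of the other kept cells.

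Distance to cells rich in Glul, the glutamine synthetase of hepatocytes around the central vein, was used as a stand-in for position along the sinusoid. The 2% of cells with the highest Glul share in each area, among cells with at least 50 counts, numbered between 109 and 174. The chosen cells lay a median of 754, 1635 and 1020 pixels from the closest of them in control areas and 600.2, 573 and 1676 pixels in HIRA KO areas, against 706, 1501, 976, 542, 545 and 1830 pixels for all kept cells of the same areas. The Glul share of the Glul-rich cells ranged from 2.495% in HIRA KO area 1 to 8.33% in control area 3. It was lowest in control area 1 and HIRA KO areas 1 and 2, the areas that also had the shortest distances. Whether the Glul-rich cells mark central veins in every area was not tested, so distances may not stand for the same position in each area. Near and far cells, the closest and the farthest tertile of each area, were 19 to 53 cells per area each. edgeR called 0 of 18 tested genes outside the rule in either direction, or 0%, and DESeq2 called 0. Ppia, the cyclophilin A gene that every cell uses, was the single gene at an unadjusted p under 0.05, at 137 counts per 10000 near and 111 far and higher near in 6 of 6 areas. Its log2 fold was 0.36 with a standard error of 0.12, and the adjusted p was 0.253 by edgeR. Mrc1 was at 35.4 near and 48.1 far, with an adjusted p of 0.954 from edgeR. Most genes were too low for this comparison, as each tertile held between 1613 and 4942 counts per area.

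The chosen cells were small, with high mean intensities of the membrane and nuclear stains. Their median area was 8703, 7093 and 8583 square pixels in control and 7451, 6960 and 7154 in HIRA KO areas, lower than that of the other kept cells in 6 of 6 areas by ratios from 0.421 to 0.855. In the other cells the medians were 15054, 16849 and 12459 in control and 8714, 10353 and 11906 in HIRA KO, which did not overlap, while those of the chosen cells overlapped. Median B2M membrane intensity was 3801, 3586 and 4791 in control and 5110, 3865 and 4946 in HIRA KO, above the other cells of the same area in 6 of 6 areas by ratios from 1.29 to 1.45. The B2m transcript, part of MHC class I, ran the same way, at 100.0 counts per 10000 against 65.9. DAPI, which stains DNA, was also higher in 6 of 6 areas, by ratios from 1.11 to 1.55. Intensities are means over a cell, and the part of the smaller cell area in these ratios was not tested. PanCK, a keratin stain, and CD3 differed little, with ratios from 0.917 to 1.002 and from 0.939 to 1.001.

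Among the 6 measures, no genotype difference could pass the test with 3 areas against 3. CD45 intensity, a leukocyte antigen, was 862, 631 and 782 in control and 998, 902 and 1242 in HIRA KO. The groups did not overlap, with means of 759 ± 117 and 1047 ± 175 (SD, n = 3 areas). The exact permutation p was 0.1, the smallest that 3 areas against 3 allow, and 0.45 after adjustment over 6 measures. The other kept cells differed alike, with means of 739 ± 73.3 and 1029 ± 152. For the remaining measures the exact permutation p lay between 0.2 and 0.7.

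Cells classed as hepatocytes made up most of the surroundings of the chosen cells, in shares close to those around all cells. A neighbour was classed by the cell type list with the most counts, so that a single count could set the class. Among the 20 nearest kept cells of the chosen cells, the hepatocyte class made up 64.4%, 75.9% and 64.6% in control and 70.9%, 70.1% and 78.5% in HIRA KO areas. Around all kept cells the shares were 59.6%, 76.1%, 63.4%, 64.5%, 72.8% and 75.2%. Kupffer cells, the resident macrophages of the sinusoid, made up between 1.45% and 5.31% of the neighbours and were above the area's average in 5 of 6 areas, by ratios from 0.943 to 1.38. Leukocytes and stellate cells were each above the average in 1 of 6 areas, with median ratios of 0.873 and 0.993. Biliary cells were below the average in all 3 control areas, at 3.81%, 1.60% and 2.76%, and were at 4.49%, 6.08% and 3.48% in HIRA KO areas, above the average in 2 of 3. Other chosen cells made up 0.397%, 2.07% and 2.83% in control and 0.508%, 0.482% and 1.45% in HIRA KO, above the average in 2 of 6 areas. Between genotypes all kinds of neighbour overlapped, with exact permutation p-values from 0.2 to 0.8 and adjusted values from 0.45 to 0.8 over 6 kinds, in a design that cannot go below 0.1. Among the 10 nearest cells biliary cells averaged 1.91% in control areas and 4.38% in HIRA KO areas, with an exact permutation p of 0.1.

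**Figure D5:**
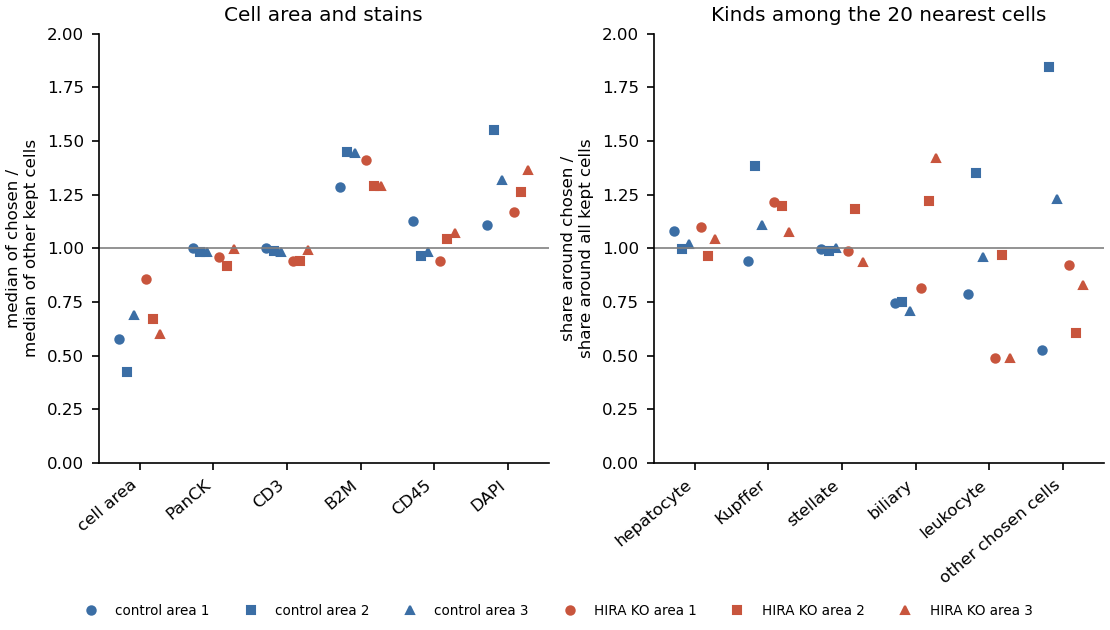
Left, median cell area and stain intensity of the chosen cells divided by the median of the other kept cells of the same area. Right, share of each kind among the 20 nearest cells of the chosen cells divided by the same share around all kept cells; blue is control, red is HIRA KO, each symbol is a tissue area, and B2M and DAPI lie above 1 in all 6 areas while cell area lies below 1.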

How the data were processed

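Transcripts were measured by CosMx on 5 µm FFPE liver sections, in 50 fields of view on 1 slide. The files deposited by the authors hold untransformed counts of each target in every segmented cell, with 0 columns unmatched to a sample, and per the file headers the mean stain intensity, area and position of each cell, without normalization. The pixel size and any background subtraction are not given in the sources used here. Of 52132 segmented cells, those with at least 20 gene counts were kept. Of 7557143 decoded transcripts 6.89% lay outside cells. No doublet caller was run, since a cell here is an outline on the tissue. Cell outlines were not used here.

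The members, gene lists and tests were chosen with earlier results of these data known. Counts were summed per area and tested with edgeR 4.0.16 (R 4.3.3; TMM, filterByExpr, quasi-likelihood test) at an adjusted p under 0.05 over all genes tested, with genotype, with area as a block plus cell class, or with the class by genotype term. The 9 genes of the rule, and Glul for distance, were not counted as calls. Per contrast, genes were named when past the threshold, or else as the 3 of lowest p in a direction, above the mean count of the highest negative probe, with up to 4 members of each list. Tek, Hbb, Prox1, Vegfa, Cd38, Cd36, and the genes highest against other cells were named after their values were seen. Levels are counts per 10000 gene counts of the same cells. Per-area medians of area and stains, and shares of neighbours, were compared by the exact two-sided permutation test. The tests were tried on simulated counts. Alternatives were DESeq2 1.42.0, other scalings and filters, stricter and looser limits for the cells, and each area left out.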

Additional observations from a re-analysis of the deposited data

How the results depend on the processing

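Counts of called genes rest on few transcripts and moved easily. In the genotype comparison 2 genes were called; it was 1 with DESeq2, without the filter on low counts, with a minimum of 50 counts per cell and with the looser limit (chosen after seeing the data), 0 with transcripts over the nucleus, and from 0 to 2 when an area was left out, with 0 without HIRA KO area 3. The genotype fit with slide row as a block, which pairs the areas of a row, gave 2. Hba-a1/2 did not pass the filter at 50 counts per cell or over the nucleus. Between sinusoidal and Vwf/Fabp4 cells 94 genes were called without the filter, all higher, where the median log2 fold was 1.48 and the cause was not tested; there Atp5b turned to 0.18, Bgn to 0.64 and Il15ra to 0.73. Near against far cells gave 1 gene with Glul-high cells set at 1%, Ifitm2, lower near at -0.87 with an adjusted p of 0.00745 from edgeR, and from 0 to 1 when an area was left out, with Ppia called without HIRA KO area 3; with Glul-high at 1% Apoe turned to -0.067, and with an area left out Itm2b ran from -0.33 to 0.069, positive without HIRA KO area 2. With the stricter limit, which left 30 cells and none in HIRA KO area 1, the class by genotype terms of Angpt2, Hba-a1/2 and Flt1 turned to -0.052, -0.29 and -0.94, and the nuclear term of Hba-a1/2 to -0.15; the cause was not tested. That limit left too few cells to fit the other gene tests or to give stains and neighbours in every area. With an area left out, the DAPI difference ran from -162 to 792 and that of stellate neighbours from -2.87 to 0.56 percentage points.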
